A study of Medicago truncatula with 24 samples.

Results

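H3K27me3, histone H3 carrying 3 methyl groups on lysine 27, was followed along embryo development of *Medicago truncatula* (line A17) at 20°C, from the early stage S1 to the mature stage S4. The members are the intervals of the 4 deposited H3K27me3 peak lists at 20°C that lie on chromosomes 1 to 8, taken by their chromosome, start and end. There were 8758 of them, out of 38053 intervals in the 12 lists of the series, with 4648, 1793, 1455 and 862 from S1 to S4. The question put to them was where the S1 intervals were no longer listed, where they were still listed and where new ones appeared, by place, length and position on the chromosome.

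The study collected embryos dissected from seeds of plants kept at 20°C by day throughout, at 17 days after pollination (S1), 26 days (S2), 36 days (S3) and 44 days (S4). The stages run from young embryos that do not yet survive drying (S1), through embryos that do (S2) and embryos that start to gain storage life (S3), to ripe seeds (S4). A second set of plants was moved to 26°C at flowering and sampled at 14, 17, 22 and 28 days after pollination. Each stage is 1 pool of embryos, 1 IP library made with an antibody against the mark and 1 INPUT library made without it. No stage therefore had a replicate, and no difference between stages carries a test. By the study's methods, fewer seeds were taken at S3 and S4 than at S1 and S2, and the part of this in the lists was not tested. The 26°C lists and the 20°C lists of H3ac, acetylated histone H3 (S1 and S2 only), are used only as values set beside those of the members. Whole embryos were used, so a change in the share of cells that carry the mark cannot be told apart from a change within cells. No RNA was measured in these libraries, and the tissue label was not checked against marker genes.

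Trimethylation of this lysine is deposited by Polycomb repressive complex 2, and in plants it marks genes that are kept silent in a given tissue or stage. In seeds it is known for the silencing of embryo programmes after germination and of vegetative and floral regulators during embryogenesis. It typically covers whole genes, in contrast to the sharp peaks of acetylation at transcription starts, and it is removed by demethylases or diluted when DNA is copied.

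The 4 lists differed in size, in the length of their intervals and in the enrichment they admitted. Together the intervals covered 7.61 Mb at S1, 4.31 Mb at S2, 3.26 Mb at S3 and 3.42 Mb at S4, or 1.79%, 1.01%, 0.765% and 0.803% of the chromosomes. S4 thus held 862 intervals against 1455 at S3 and covered slightly more sequence. The median length was 424 bp at S1, 645 bp at S2, 615 bp at S3 and 1371 bp at S4, and intervals of at least 1 kb made up 24.2%, 38.4%, 37.8% and 60.0% of the lists. Long intervals carried most of the covered sequence at every stage. Those of at least 5 kb numbered 439, 219, 136 and 182 at the 4 stages and held 62.3%, 66.1%, 61.9% and 73.2% of the covered length. The median fold enrichment, which is the ratio of IP to INPUT signal averaged over an interval, was 3.58 at S1 and 2.56, 2.46 and 2.52 at the later stages. An enrichment of at least 3 was reached by 4420 of the S1 intervals and by 271, 144 and 142 of those at S2, S3 and S4. The S1 list was therefore not drawn from the same range of enrichment as the others. Each list was also reduced to its 862 intervals of smallest p-value. The covered length was then 3.20 Mb at S1, 3.20 Mb at S2, 2.65 Mb at S3 and 3.42 Mb at S4. Equal numbers take away the excess of S1 intervals beforehand, so these lengths cannot show whether it was present among strong intervals. At a −log10 p of at least 5, S1 covered 4.13 Mb and S2, the next largest, 2.60 Mb. At a fold enrichment of at least 3, S1 covered 7.37 Mb and S2, again the next largest, 2.11 Mb. By the study's own read table, the S2 and S3 IP libraries had more reads than that of S1, and S4 had the fewest IP reads and the deepest INPUT. The reads left after duplicate removal are not in the lists, and their part in the size of each list was not tested.

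Most S1 intervals were in no later list. Of the 4648, 4119 (88.6%, exact binomial 95% interval 87.7 to 89.5) overlapped no interval of S2, S3 or S4 by even 1 bp. These binomial intervals cover counting error only, not the difference that a second library of the same stage would show. An overlap was found for 392 S1 intervals (8.43%) at S2, for 329 (7.08%) at S3 and for 283 (6.09%) at S4. An interval that found a partner anywhere later is called kept below, and there were 529 of these (11.4%), of which 191 were met in all 3 later lists. With a fold enrichment of at least 3 asked of every list, the overlaps were 2.65%, 1.63% and 1.65%, and with 862 intervals in each list they were 9.98%, 7.77% and 8.47%. By length, the loss was smaller. Of the 7.61 Mb covered at S1, 19.4% was covered again at S2, 16.0% at S3 and 15.7% at S4, and 21.6% in any of them. The lost intervals were mostly far from anything listed later. Their median distance to the nearest later interval was 78.2 kb, and only 78 of them (1.89%) lay within 1 kb of one.

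The lists of the warmer series give a measure of how much 2 lists from different pools shared. At 26°C, 74% of the 5611 S1 intervals were in none of the later lists of that temperature, and 44.8% of the S1 length was covered again later. The 20°C S1 intervals overlapped the 26°C S1 list in 631 cases (13.6%), the same stage by label from other plants. They overlapped the 26°C S2 and S3 lists in 13.6% and 14.4% of cases, above the 8.43% and 7.08% found in the 20°C lists of the same stages. The 26°C lists are longer, with 5234 and 6448 intervals, and none of these differences was tested.

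When the 4 lists were merged wherever intervals overlapped or touched, 7121 regions of 12.5 Mb resulted. S1-only regions were 57.8% of them by number and 42.5% by length, with 4119 regions and 5.29 Mb. Regions found only at S2 numbered 1041, only at S3 740 and only at S4 344. A stepwise loss, in which a region was present at S1 and then disappeared for good at S3 or S4, was seen in 154 regions (0.817 Mb). Another 137 regions were present at S1, absent from a list in between and listed again. The regions held by all 4 lists were only 145, or 2.04% by number, but 2.30 Mb, or 18.4% by length, with a median of 11199 bp against 406 bp for the S1-only regions.

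**Figure D1:**
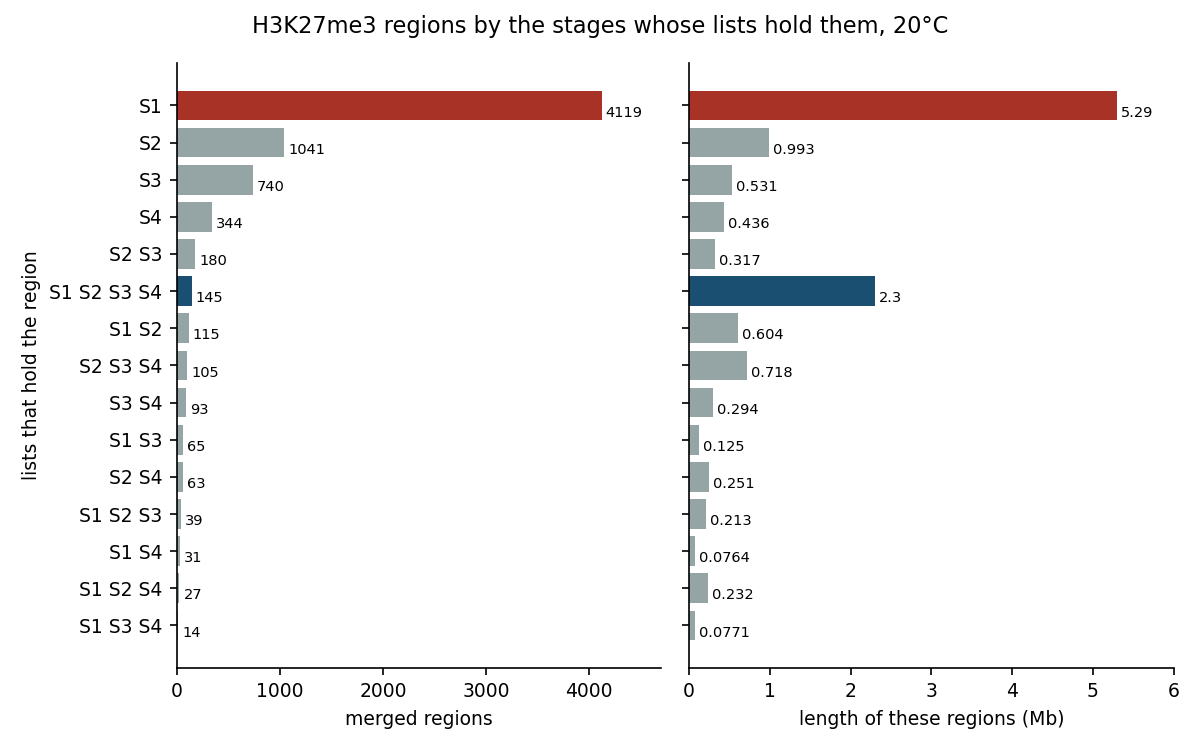
Merged H3K27me3 regions at 20°C by the set of stage lists that hold them, as a number (left axis of bars, regions) and as summed length (right axis of bars, Mb), with 1 library per stage. S1-only regions (red, 4119) are the longest bar in both panels, and the 145 regions present at all stages (dark blue) are a small bar by number and the second longest by length, 2.30 Mb.

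The share of S1 intervals kept was larger for longer intervals. Those under 300 bp were kept in 6.27% of cases and those from 300 to under 500 bp in 5.64%, and these 2 shares lie within each other's intervals. From there the share rose with each class, to 11.4% from 500 bp to 1 kb, 17.4% from 1 to 2 kb, 22.9% from 2 to 5 kb, 28.0% from 5 to 10 kb and 39.0% (78 of 200; 32.2 to 46.1) at 10 kb or more. With the border at 1 kb, 7.07% of 3522 shorter and 24.9% of 1126 longer intervals were kept, a difference of 17.8 percentage points. A long interval meets a partner more easily when 1 bp is enough. When at least 50% of the S1 interval had to be covered, a rule applied to the lengths after seeing the data, the shares were 5.76% and 17.2%. Measured by sequence, the later lists together covered 6.66% of the length of the shorter intervals and 25.1% of that of the longer ones.

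**Figure D2:**
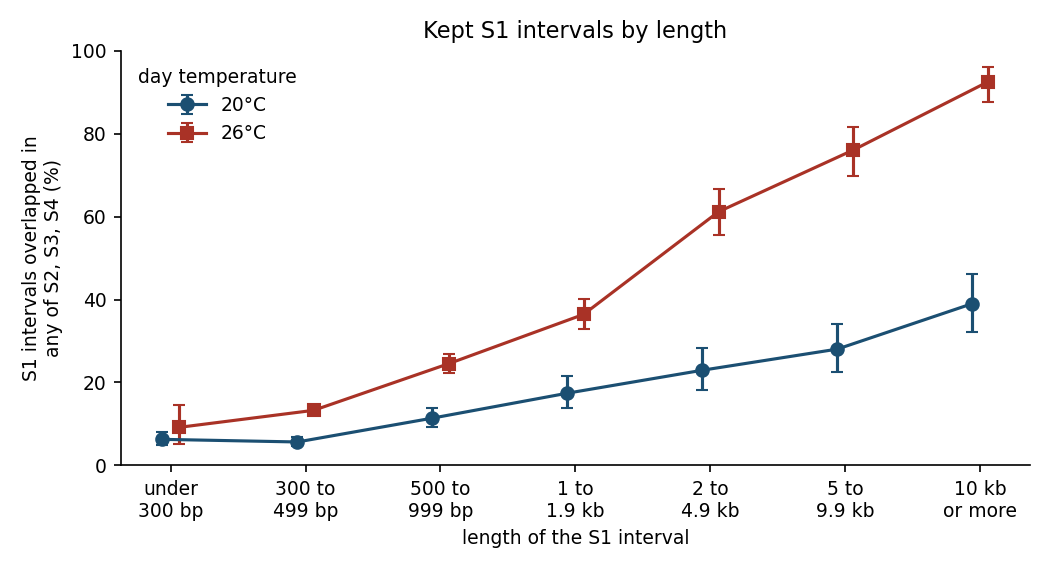
Share of S1 intervals overlapped by at least 1 interval of S2, S3 or S4 (y axis, %) by length of the S1 interval (x axis), at 20°C (blue) and at 26°C (red). Points are shares of 1 list per temperature and bars are exact 95% binomial intervals; at 10 kb or more the shares are 39.0% at 20°C and 92.6% at 26°C.

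The long S1 intervals were where the 2 temperatures stood furthest apart in percentage points. Of those with at least 5 kb, 145 of 439 were kept at 20°C (33.0%; 28.6 to 37.6), whereas 83.6% of 384 were kept at 26°C. For intervals under 300 bp the shares were 6.27% and 9.15%. The 294 long intervals of S1 at 20°C that were in no later list were not absent from the other plants. Of these, 33.7% overlapped the 26°C S1 list and 56.1% overlapped at least 1 of the 4 lists at 26°C. The 145 long intervals that were kept overlapped the 26°C S1 list in 86.9% of cases. Among lost intervals under 1 kb, only 5.53% overlapped the 26°C S1 list and 15% any list at 26°C. Most short S1 intervals were thus seen in 1 of the 8 H3K27me3 lists alone, and whether they would recur in a replicate was not tested.

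Enrichment at S1 did not order the fates in the same way. All 16 S1 intervals with a fold enrichment under 2 were kept, and 46.2% of the 212 from 2 to 3. The large class from 3 to 4 held 2948 intervals and kept 9.29%, that from 4 to 6 kept 7.92%, and that from 6 to 8 kept 11.7%. At 8 or more, 24 of 73 intervals (32.9%; 22.3 to 44.9) were kept. Intervals of 8 or more had a median length of 10924 bp and those from 3 to 4 of 404 bp, so enrichment and length cannot be told apart at the upper end.

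Few S1 intervals in protein-coding genes or within 3 kb of a gene were kept, more of those farther from genes, and all of the 21 at rRNA genes. Each interval was put in the first class that applied among overlap with an rRNA gene, a protein-coding gene or another gene, a distance of up to 3 kb from a gene, and farther. At S1, 1672 intervals (36.0%) lay in a protein-coding gene, 1203 (25.9%) within 3 kb of a gene and 1598 (34.4%) farther away. Protein-coding genes span 30.5% of the chromosomes and the sequence more than 3 kb from any gene 33.5%. These are shares of sequence, whereas an interval counts as in a gene from 1 bp on, so the 2 kinds of share are not alike. By length, the S1 intervals in protein-coding genes held 3.50 Mb of the 7.61 Mb and those farther away 2.37 Mb. The number in protein-coding genes went from 1672 at S1 to 253, 174 and 100 later, which fell by 4.06 on the log2 scale from S1 to S4. Those farther than 3 kb from any gene went from 1598 to 1155, 969 and 591, which fell by 1.43 on the log2 scale. As a result 64.4%, 66.6% and 68.6% of the S2, S3 and S4 intervals lay away from genes. The median distance of an interval to the nearest protein-coding gene was 1.64 kb at S1 and 9.67, 11 and 12.7 kb at the later stages.

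**Figure D3:**
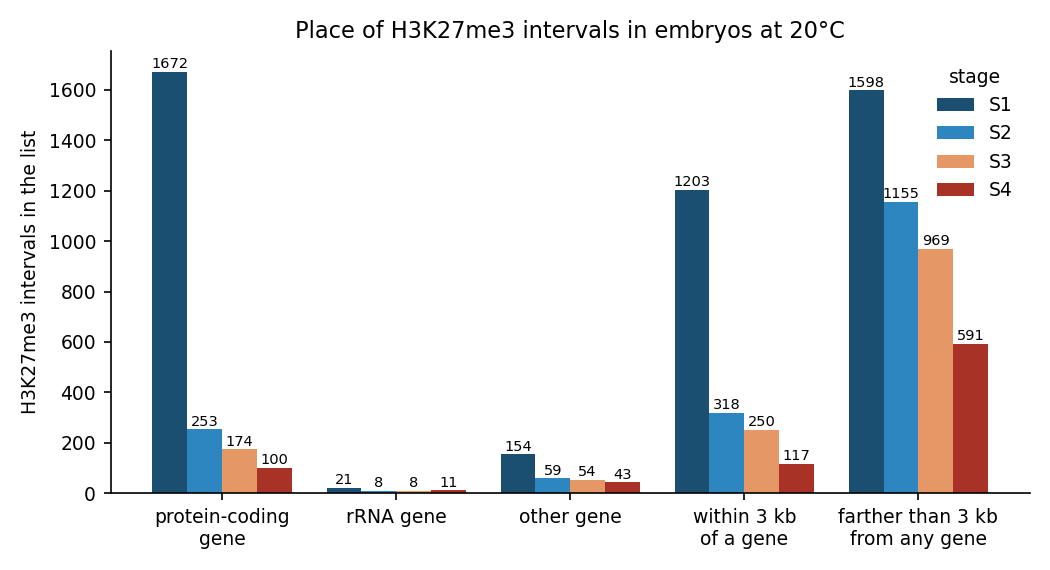
Number of H3K27me3 intervals (y axis) in each class of place (x axis) for the lists of S1 to S4 at 20°C, 1 bar per list. Intervals in protein-coding genes go from 1672 to 100 and those farther than 3 kb from any gene from 1598 to 591.

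The same order held for individual fates. The later lists hold more intervals away from genes, where an S1 interval thus meets a partner more easily. The share expected from this was not computed. Only 100 of the 1672 S1 intervals in protein-coding genes were kept (5.98%; 4.89 to 7.23), and 5.74% of those within 3 kb of a gene, against 315 of 1598 (19.7%; 17.8 to 21.7) of those farther away. All 21 S1 intervals that overlapped an rRNA gene were kept. The contrast between places was present within each length class. Below 1 kb, 2.88% of the intervals in protein-coding genes and 13.55% of those away from genes were kept, and at 5 kb or more 43 of 235 (18.3%; 13.6 to 23.8) and 72 of 119 (60.5%; 51.1 to 69.3). The genic intervals of at least 5 kb held 2.52 Mb at S1, of which 5.80% was covered again at S4. The long intervals away from genes held 1.32 Mb, of which 49.4% was covered again at S4. With each list reduced to its 862 intervals of smallest p-value, an alternative applied to the places after seeing the data, the kept shares were 9.50% in protein-coding genes and 15.8% away from genes, a difference of 6.33 percentage points in place of 13.7.

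**Figure D4:**
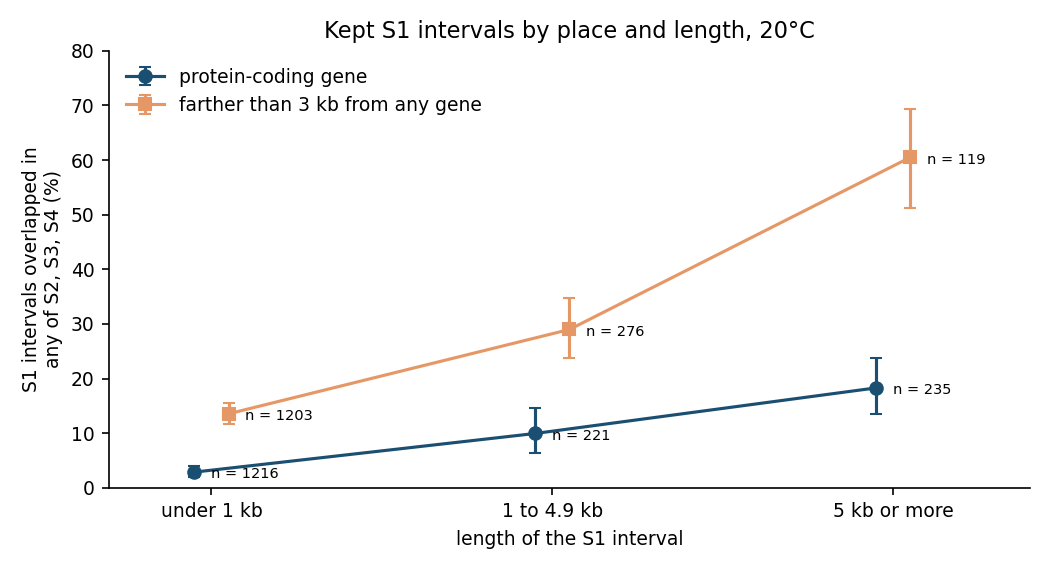
Share of S1 intervals overlapped by any later list at 20°C (y axis, %) in 3 length classes (x axis), for intervals in a protein-coding gene (blue) and for those farther than 3 kb from any gene (orange). Bars are exact 95% binomial intervals and n is the number of S1 intervals; the intervals of the 2 places do not overlap in any length class.

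Later intervals also lay farther inside the chromosomes, where protein-coding genes are sparser. Chromosome ends were taken as the largest end of a gene or interval seen. The S1 list was almost even along the arms, with 9.34 to 11.9 intervals per Mb in 7 bands of distance from the end. Later lists were thin near the ends and denser inside. At S4 there were 1.44 intervals per Mb in the outermost 1 Mb, 0.594 from 1 to 3 Mb, 1.14 from 5 to 10 Mb and 3.37 beyond 20 Mb. Intervals in the distal 3 Mb of each end made up 10.6% of the S1 list, close to their 11.3% of the sequence, and 6.14%, 5.02% and 4.87% of the lists of S2, S3 and S4. The median distance from the end accordingly moved from 14.3 Mb at S1 to 17.7, 18.2 and 18.5 Mb.

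**Figure D5:**
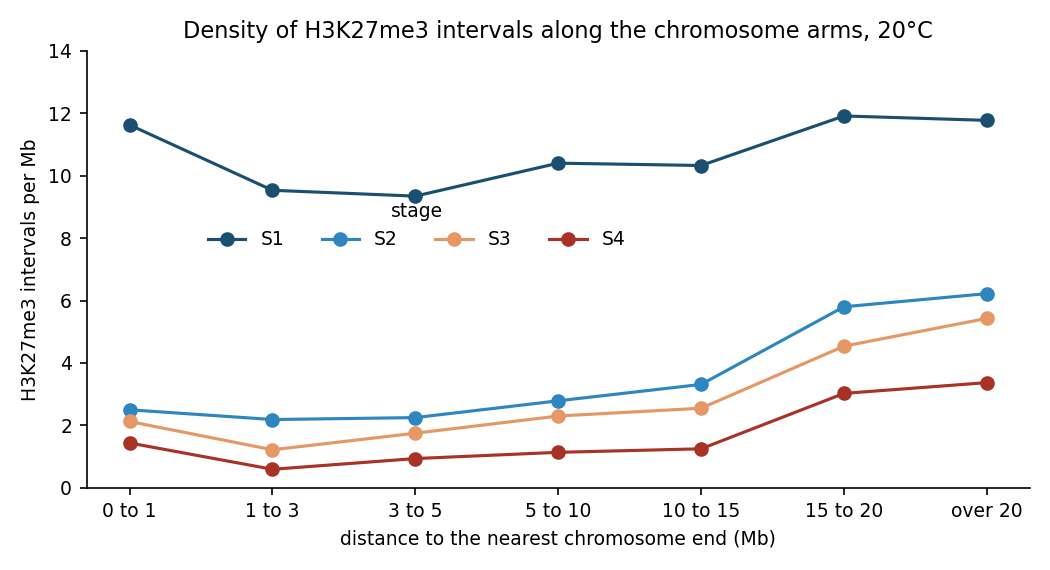
Number of H3K27me3 intervals per Mb (y axis) in 7 bands of distance from the nearest chromosome end (x axis, Mb; bands of unequal width) for S1 to S4 at 20°C, 1 list per stage. S1 stays between 9.34 and 11.9 per Mb, whereas S4 goes from 0.594 at 1 to 3 Mb to 3.37 beyond 20 Mb.

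Fates followed the same axis. An S1 interval meets a partner more easily where the later lists are denser, and the share expected from that density was not computed. Of the S1 intervals in the distal 3 Mb, 4.48% were kept, and 12.2% of the rest. By band the share was 5.91% in the outermost 1 Mb, 3.61% from 1 to 3 Mb, 6.69% from 3 to 5 Mb, 7.81% from 5 to 10 Mb, 9.32% from 10 to 15 Mb, 14.9% from 15 to 20 Mb and 16.3% beyond 20 Mb. When each chromosome was cut into 10 equal parts from start to end, the share kept peaked in part 5 (21.5%; 18.2 to 25.1) and was lowest in part 10 (4.50%; 2.77 to 6.87). In protein-coding genes 2.99% of the distal and 6.47% of the other intervals were kept, and their binomial intervals (1.21 to 6.07 and 5.25 to 7.86) overlap. The distal intervals of at least 1 kb were kept in 11 of 94 cases (11.7%), those elsewhere in 26.1%.

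In 1-Mb bins, S1 was present everywhere. All 428 bins held at least 1 S1 interval, whereas 369, 337 and 261 bins held an interval of S2, S3 and S4, respectively. The number of intervals was lower at S4 than at S1 in 414 bins, equal in 6 and higher in 8. The 8 bins with more intervals at S4 had a median of 29.5 protein-coding genes, against 80 in the 414 and 79 over all bins. The 18 bins with S1 intervals and none later had a median of 91.5 protein-coding genes. The gene content of the bins around an interval fell likewise, from a median of 77 protein-coding genes at S1 to 50, 49 and 39 at S2, S3 and S4.

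Among chromosomes, chromosome 6 had the largest share of kept intervals. It kept 95 of its 511 S1 intervals (18.6%; 15.3 to 22.2), and the other chromosomes between 8.69% on chromosome 1 and 12.8% on chromosome 7. The length covered at S4 was 77.1% of that at S1 on chromosome 6 and ranged from 23.7% on chromosome 5 to 53.2% on chromosome 7 elsewhere. The binomial interval of chromosome 6 still meets that of chromosome 7 (10.3 to 15.6). Chromosome 6 carries a large block of rRNA genes, described below. Without intervals within 10 kb of an rRNA gene, left out after seeing the data, it kept 16.6% and its S4 length was 63.2% of that at S1, both still the highest of the 8.

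Later intervals that overlapped none at S1 lay mostly away from genes and far inside the chromosomes, as did later intervals with an S1 partner. At S2, 1458 of 1793 intervals (81.3%) overlapped none at S1, at S3 1180 of 1455 (81.1%) and at S4 640 of 862 (74.2%). They were short, so they held 44.7%, 42.0% and 41.4% of the covered length of these lists. Their median fold enrichment was 2.54, 2.44 and 2.49, whereas only 228 of the 4648 S1 intervals were under 3. Whether a signal of this height was already present at S1 cannot be seen from the S1 list. In no earlier list at all were 852 intervals of S3 (58.6%) and 344 of S4 (39.9%; 36.6 to 43.3), the latter with 12.8% of the S4 length. The 640 S4 intervals without an S1 partner had a median length of 1042 bp. Of these, 71.1% lay farther than 3 kb from any gene and 10.6% in a protein-coding gene, and their median position was 18.5 Mb from the end. For the 222 S4 intervals with an S1 partner these values were 61.3%, 14.4% and 18.6 Mb. The 191 S1 intervals met in all later lists lay away from genes in 64.9% of cases, in protein-coding genes in 12.0%, and 19.6 Mb from the end. The 4119 lost S1 intervals lay away from genes in 31.1% and in protein-coding genes in 38.2% of cases, 13.5 Mb from the end. Regions first listed at S2 or S3 and held to S4 numbered 198 and covered 1.01 Mb. The later lists shared more with each other than with S1. Of the S4 intervals, 43.7% overlapped the S3 list and 42.6% the S2 list, and 25.8% the S1 list, which has more intervals than both together.

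H3ac intervals of the same labelled stages overlapped these groups in different shares. The H3ac lists at 20°C held 4376 intervals at S1 and 928 at S2 and covered 0.806% and 0.736% of the chromosomes. Of all S1 intervals of H3K27me3, 5.57% overlapped an H3ac interval of S1 and 3.66% one of S2. Of the lost ones, 2.84% overlapped one at S1 and 0.558% at S2. Of the 191 found in all later lists, 56.5% overlapped H3ac at S1 and 61.8% at S2. These groups differ in length, with a median of 3239 bp for the 191 and 406 bp for the lost intervals, and at an overlap of 1 bp a longer interval meets a partner more easily. In a split by length made after seeing the data, among S1 intervals of at least 5 kb, H3ac at S1 overlapped 43 of 80 found in all later lists (53.8%; 42.2 to 65.0) and 25 of 294 lost ones (8.50%; 5.58 to 12.3). Below 1 kb the counts were 28 of 49 and 63 of 3273. The S4 intervals without an S1 partner overlapped H3ac at S1 and S2 in 20.0% and 26.7% of cases. A region listed for both marks, each against its own INPUT, cannot be told apart here from a region that is enriched in any IP library, and this was not tested.

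The 145 merged regions held at all stages, which are not the 145 kept long intervals, were covered more fully later while the list around them shrank. Their share of the covered length was 18.3% at S1 and 44.3%, 55.3% and 53.5% later. Of their own 2.30 Mb, 60.5% was covered at S1 and 83.2%, 78.5% and 79.6% later. Coverage was larger at S4 than at S1 in 97 of the 145 and smaller in 48, with a median of 0.38 on the log2 scale. The highest fold enrichment in the region was above that at S1 in 39 regions at S4. The whole S1 list lies higher, with a median of 3.58 against 2.52 at S4, and its maximum is taken over more pieces. This count therefore cannot show whether enrichment changed with extent. In total S1 had more pieces in these regions, 230 against 185, 184 and 169 later. Only 33 of the 145 regions had more pieces at S1 than at S4, and 13 had fewer. Of the 145 regions, 61.4% lay farther than 3 kb from any gene and 22.8% touched a protein-coding gene. They recurred at 26°C, 75.2% in the S1 list and 97.2% in the S4 list, whereas 20.6% of the S1-only regions were met in any list at 26°C. The 2 sets differ in length, with medians of 11199 and 406 bp, and a longer region meets a partner more easily. Lost S1 intervals of at least 5 kb were met in any list at 26°C in 56.1% of cases.

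The strongest of these regions lie inside the chromosomes and hold few or no annotated genes. On chromosome 4, the region from 19615783 to 19674134 (MtrunA17r5.0 assembly, 58.4 kb) holds no gene and had a fold enrichment of 18.2, 58.2, 63.5 and 69.2 from S1 to S4. Its coverage was 97.6% at S1 and at least 99.6% later, so only the enrichment moved. On chromosome 1, the region from 22801825 to 22917229 (115 kb, 1 gene that is not protein-coding) went from 10.01 to 19.5, 25.8 and 28.8, and its coverage from 86.7% to 100%. On chromosome 7, the region from 18471582 to 18511252 (39.7 kb, no gene) went from 8.21 to 15.7, 22.5 and 23.7. The region on chromosome 5 from 23789937 to 23830047 (40.1 kb, 4 genes, of which 3 are rRNA genes) had 11.9, 11.8, 16.6 and 19.2. The region on chromosome 6 from 24875875 to 24917436 (41.6 kb, no gene) kept its enrichment between 8.22 and 10.2, and its coverage went from 41.0% to 99.3%. All 5 overlap H3ac intervals at S1 and S2 as well. Each fold enrichment is the highest of the intervals in the region, whatever share of the region they cover. It is relative to the INPUT of its own library, and with 1 library per stage the size of these steps has no error.

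The 5 longest S1 intervals were all kept. They measured 39.9 to 63.0 kb on chromosomes 6, 1, 4, 8 and 5, and at S4 4 of them were covered completely and that on chromosome 5 to 98.9%. The longest, on chromosome 6 from 20355277 to 20418302, holds no gene and had a fold enrichment of 4.96, 11.9, 10.7 and 13.2 from S1 to S4. At S4 it lay in an interval of 104 kb, from 20318005 to 20421844, of which 74.2% had been covered at S1. On chromosome 7, the S4 interval from 18531879 to 18596300 (64.4 kb, no gene) had been covered to 63.3% at S1 and to 97.8% and 99.5% at S2 and S3. That on chromosome 8 from 22134800 to 22197167 (62.4 kb, no gene) went from 88.2% at S1 to 95.1% and 97.4%.

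Ribosomal RNA genes were the annotated class that went the other way from protein-coding genes. An interval overlapped 155 of the 1407 rRNA genes on the chromosomes at S1 (11%), and at the later stages 542 (38.5%), 546 (38.8%) and 518 (36.8%). Most of them sit in 1 block. The S4 interval on chromosome 6 from 20605213 to 20710605 (105 kb) overlaps 376 genes, of which 342 are rRNA genes, and its span was covered to 13.5% at S1 and to at least 99.98% at each later stage. The highest fold enrichment of an interval there was 4.00, 5.23, 5.40 and 3.99 from S1 to S4. At S1 it stands for the listed 13.5% only, so heights over the whole block cannot be compared between S1 and S4. Reads were kept only where they had 1 place in the genome, so how much of this repeated block could receive reads is not known, and the 342 genes are not separate observations. The block adds little to the number of intervals. Within 10 kb of rRNA genes there were 27, 19, 23 and 18 intervals at S1 to S4, with 177, 271, 269 and 250 kb.

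For genes as a whole, 2112 of 39280 (5.38%) were overlapped at S1 and 902 (2.3%), 821 (2.09%) and 725 (1.85%) at S2, S3 and S4. Protein-coding genes went from 1723 of 31728 at S1 to 241, 164 and 103, and lncRNA genes from 86 of 2561 to 23, 16 and 14. Pseudogenes went from 84 of 1562 at S1 to 65, 69 and 60, and the binomial interval at S1 (4.31 to 6.62%) overlaps that at S4 (2.94 to 4.92%).

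Of the 31728 protein-coding genes, 1577 (4.97%) had an interval in the gene at S1 and none in the gene or the 3 kb on each side at any later stage. These are called lost genes. Only 30 (0.0946%) had an interval in all 4 lists, the kept genes, and 6 (0.0189%), the gained genes, had one in the gene at S2, S3 and S4 and, at S1, neither in the gene nor within 3 kb of it. Whatever their state at S2 and S3, 51 (0.161%) had an S4 interval and lacked one at S1, counted in the same way. These 51 include the 6 gained genes. The lost genes were overlapped by 1536 S1 intervals. At 26°C, 447 of the 1577 lost genes (28.3%) had an interval at some stage, with 213, 193, 147 and 52 from S1 to S4 (13.5%, 12.2%, 9.32% and 3.30%). Over all protein-coding genes these shares at 26°C were 15.9% at some stage and 6.43%, 5.87%, 5.18% and 2.32% by stage. All 30 kept genes had one at 26°C at S1 and at S3, and all 6 gained genes had one at 26°C at S3. The counts of genes depend on the threshold. With 862 intervals in each list there were 400 lost, 17 kept and 11 gained genes. At a −log10 p of at least 5 there were 684, 18 and 2, and at a fold enrichment of at least 3 there were 1638, 16 and 0. The gene table used here gives no product names, so genes are named by their RefSeq identifiers with no role stated.

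Among the lost genes, the highest enrichment at S1 was at LOC25493109 and LOC25493110, which overlap each other on chromosome 4 (43043408 to 43053884 and 43049619 to 43050655) and share an S1 interval of 9.68 kb with a fold enrichment of 19.5. Neither was overlapped at S2, S3 or S4 at 20°C, and at 26°C only the longer gene was, at S3, with 2.96. LOC25499933 on chromosome 7 (23827065 to 23831928) had 18.9 at S1 and none later in or within 3 kb of the gene, and at 26°C had 9.68 at S1 and 8.42 at S2. LOC25486381 and LOC112419352 are neighbours on chromosome 2 (15190979 to 15195621 and 15199012 to 15199737) under an interval of 12.7 kb with 17.4 at S1. At 26°C the pair was listed at S2 only, with 3.11 and 3.38. The pair LOC11428057 and LOC11428058 on chromosome 1 (7519615 to 7521536 and 7523404 to 7524477) had 16.2 at S1, and 7.09 and 3.25 at S2 at 26°C, where LOC11428058 was also listed at S3, with 5.19. LOC25489250 on chromosome 3 (33553768 to 33645244) had 16.5 from an interval that touches the end of this gene of 91.5 kb. Over its whole span it is the only one of the 8 that was listed at all 4 stages at 26°C, with at most 5.91, 7.02, 3.56 and 3.47. The S1-only region at its end (33644889 to 33658031) was listed at 26°C at S1, S2 and S3, with 3.23, 2.97 and 2.98, and not at S4. The 8 genes lie between 7.52 and 25.3 Mb from a chromosome end. Both remaining regions among the 5 S1-only regions of highest enrichment lie at LOC120579961 on chromosome 4 (region 28438789 to 28451047, 15.4) and LOC11437836 on chromosome 7 (region 9471681 to 9482639, 15.2), and none of these 5 regions overlapped an H3ac interval. LOC25499933 and the pair LOC11428057 and LOC11428058 are not at any of these 5 regions, although 18.9 and 16.2 exceed 15.4. Their merged regions were therefore also held by a later list, with no later interval within 3 kb of these genes.

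The longest S1-only regions, a set chosen after its values were seen, were also genic. The longest, on chromosome 3 from 40151265 to 40178714 (27.5 kb, fold enrichment 4.40), spans 6 protein-coding genes, LOC120579673, LOC120579607, LOC120579424, LOC112420236, LOC25489610 and LOC25489611, and was listed at 26°C only at S2, with 4.33. The next, on chromosome 6 from 13081809 to 13105076 (23.3 kb, 8.72), spans LOC25496105 and LOC112422633 and was listed at 26°C at S2 and S3, with 4.17 and 3.49. A region on chromosome 5 from 26092055 to 26112641 (20.6 kb, 12.0) spans LOC11431474, LOC11429941 and LOC25495013 and was listed at 26°C at S1, S2 and S3, with 3.05, 3.89 and 3.09. None of the 5 longest overlapped an H3ac interval.

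The 8 kept genes described here were ranked by the lowest of their 4 values and the lost genes by S1 alone, so their levels are not set against each other. LOC11421359 and LOC11421360 on chromosome 7 (53168625 to 53172495 and 53175844 to 53177223) share intervals with 5.44, 5.17, 5.97 and 6.24 from S1 to S4. LOC120579358 and LOC120579359 on chromosome 3 (31820494 to 31822785 and 31828308 to 31830878) went from 7.53 to 5.02, 5.11 and 4.14. LOC25480017 on chromosome 5 (23911733 to 23912206) had 4.50, 3.86, 4.66 and 6.29, and LOC120580660 on the same chromosome (23834605 to 23847791) had 4.55, 4.86, 4.05 and 3.72. LOC11423726 on chromosome 4 (508433 to 514776) is the only one of the 8 within 1 Mb of a chromosome end and had 4.71, 3.76, 4.50 and 4.67. LOC120579525 on chromosome 3 (16827178 to 16908618) went from 5.79 to 18.2, 16.1 and 17.2, and it is a gene of 81.4 kb, so its intervals need not lie in its exons. At 26°C all 8 were listed at S1, S2 and S3, and LOC120580660 alone was not listed at S4.

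The 6 gained genes were all weakly enriched. LOC112419013 on chromosome 2 (49650669 to 49652445) had a fold enrichment of 2.92 at S2, 2.47 at S3 and 2.69 at S4, and LOC112421301 on chromosome 4 (1525575 to 1527807) had 2.56, 2.45 and 2.51. LOC25486643 on chromosome 2 (20564670 to 20570834) had 2.76, 2.30 and 3.02, and LOC112420142 on chromosome 7 (19663048 to 19668172) had 2.62, 2.57 and 2.27. LOC120579623 on chromosome 3 (53952649 to 53960382) had 2.89, 2.26 and 2.52. LOC11422231 on chromosome 6 (33488594 to 33601294), a gene of 113 kb, had 2.84, 2.46 and 2.16 and at 26°C was also listed at S1, with 6.65. In the S1 list 228 of 4648 intervals had an enrichment under 3, and whether a signal of this height was present at S1 in these genes cannot be seen from that list.

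The 5 longest regions held by S2, S3 and S4 and not by S1 hold no gene, a set chosen after its values were seen. The longest of them lies on chromosome 1 from 23249805 to 23277611 (27.8 kb). Its fold enrichment was 3.44, 2.54 and 3.54, and 94.5%, 52.8% and 91.9% of it was covered. At 26°C it was listed at all 4 stages, including S1 with 2.94. The others, of 15.1 to 20.0 kb, lie on chromosomes 6, 8, 3 and 7.

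Of the 77 protein-coding genes to which the table gives a name of their own or a synonym, 2 had an interval at S1 and 0 at S2, S3 or S4. Both were named here after their values were seen. SUNN (LOC11439632, chromosome 4, 34866744 to 34870592), the receptor kinase through which the shoot limits the number of root nodules, had 3.58 at S1 and was in no other of the 8 lists. NOOT1 (LOC11417633, chromosome 7, 42203811 to 42207270), a regulator with BTB and ankyrin domains that maintains nodule identity, had 4.91 at S1, and at 26°C it had 6.82 at S2 and 2.96 at S4. The share of these genes with an S1 interval was below that of all protein-coding genes, and 2 genes are too few to compare.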

How the data were processed

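ChIP-seq peak lists of H3K27me3 from embryos at 20°C (S1 to S4, 1 IP and 1 INPUT library each) were analysed, and those at 26°C and of H3ac at 20°C were set beside them. According to the study's methods and script, the authors trimmed the reads with Trim Galore, aligned them with STAR against MtrunA17r5.0, dropped reads that fit more than 1 place, marked duplicates with Picard, removed them, and called broad peaks with MACS2 for each IP against its INPUT at a p-value threshold of 0.01, without pooling, whereas narrow peaks were deposited for H3ac. Tool versions are not given in the sources used here. The authors deposited 3 values per interval, each averaged over it, namely fold enrichment as the ratio of IP signal over INPUT signal, −log10 p-value and −log10 q-value. Read depth is not in the lists, so a threshold at a fixed p-value can list weaker intervals in a deeper library, and removed multiple-place reads leave repeats thinly measured.

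Lists were read with Python 3.11.15, NumPy 2.4.6, SciPy 1.17.1 and pandas 2.3.3, and figures were drawn with matplotlib 3.10.9. Intervals on chromosomes 1 to 8 were used. Overlap meant at least 1 bp, and counts were checked against bedtools 2.31.1 and tested on simulated data. Shares carry Clopper-Pearson 95% intervals. No test was run, as each stage had 1 library. Gene positions came from RefSeq for this assembly, in a table without strand, exons or product names; a gene was counted over its whole span. Planned product lists and promoter motifs could not be used. Up to 8 genes were named per class (lost, kept, gained), ranked by the smallest fold enrichment over the lists that hold them, together with the 5 longest intervals of S1 and S4, and the 5 regions with the highest fold enrichment among S1-only and all-stage regions. The members and lists were chosen with earlier results of these data known. Alternatives were stricter p, q and enrichment thresholds, equal list sizes, other overlap rules, merging within 1 kb, intervals near rRNA genes left out, and other borders of length and position.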

Additional observations from a re-analysis of the deposited data

Results flagged for a closer look

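The following values changed from S1 at 20°C and did not change in the same direction at 26°C, or appeared outside the chromosomes analysed. Each rests on 1 library per stage and the differences between temperatures were not tested. The number of intervals fell by 1.68 on the log2 scale from S1 to S3 at 20°C and was 0.20 above S1 at 26°C. Intervals of at least 5 kb fell by 1.00 on the log2 scale from S1 to S2 at 20°C. At 26°C they were almost equal in number, 384 at S1 and 385 at S2, a log2 ratio of 0.0038. The median interval length had a log2 ratio to S1 of 0.61 at S2 and 0.54 at S3 at 20°C, and of -0.086 and -0.12 at 26°C. Intervals farther than 3 kb from any gene had log2 ratios of -0.72 at S3 and -1.435 at S4 at 20°C, whereas their log2 ratios were 0.61 and 0.39 at 26°C.

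The 20°C lists also hold intervals outside chromosomes 1 to 8. On the mitochondrial genome the lists of S1 to S4 held 51, 48, 14 and 13. The plastid genome had 1, 1, 3 and 2, and the unplaced contigs 54, 53, 45 and 36. Organelle DNA carries no histones.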

How the results depend on the processing

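No paired analysis was possible because each stage had 1 library. Of 120 values under alternatives, 55 stayed within the binomial interval of the reported value (for counts, within 1.5 times), 65 moved and 0 reversed. Shares, lengths and counts have no sign to reverse, so the 0 holds only for the differences in the share kept. The causes of the moves were not tested. In the order S2, S3 and S4, the percent of S1 intervals overlapping a later list was 6.36, 4.77 and 5.04 at a −log10 p of at least 5, 2.65, 1.63 and 1.65 at a fold enrichment of at least 3, and 6.17, 5.34 and 4.97 when 50% of the interval had to be covered. With equal list sizes it was 9.98 at S2 and 8.47 at S4, with a match within 1 kb 9.53 at S2 and 8.20 at S3, and at a q-value of at most 0.05 5.35 at S4. S1 intervals in no later list were 92.8%, 96.7%, 91.5%, 86.9%, 89.6% and 89.7% under the p, enrichment, 50%, 1 kb, q and 200 bp rules. Later intervals not in S1 were 83.7, 87.1 and 78.1% (p), 64.9, 62.5 and 63.4% (enrichment), 91.1, 93.6 and 92.6% (equal sizes), 88.3, 88.0 and 85.2% (50%), 78.6% at S2 and 77.5% at S3 (1 kb) and 83.1% at S3 (200 bp). The S1 length covered again was 23.1, 18.8 and 19.3% (p), 13.5, 10.3 and 10.6% (enrichment), 26.4, 22.1 and 22.8% (equal sizes) and 18.0, 14.6 and 14.4% without intervals near rRNA genes.

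Lost, kept and gained genes numbered 684, 18 and 2 (p), 400, 17 and 11 (equal sizes) and 3043, 60 and 18 (with 3 kb on each side of the gene), and at a fold enrichment of at least 3 there were 16 kept and 0 gained. The difference in the share kept between longer and shorter intervals was 21.0 percentage points with the border at 2 kb and, in alternatives added after seeing the data, 24.6 with equal sizes and 11.5 with the 50% rule. That between the rest and the distal 3 Mb was 5.22 (p) and 5.00 (50%), and that between places 6.91 (p) and 6.33 (equal sizes), both added likewise. The missing replicates and unknown depth limit every comparison between stages, and intervals weaker than the calling threshold of each list cannot be recovered.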
